A study of Mus musculus with 24 samples.

Results

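Transcription factor genes of the dorsal neural tube were followed in mouse embryonic stem cells (mESCs) and in neural cells derived from them. The set holds 10 genes, Msx1, Msx2, Msx3, Gsx1, Gsx2, Zic1, Zic2, Pax6, Pax7 and Lmx1a, of 23119 entries in the deposited expression table. It was chosen by name, as a family of dorsal regulators, and because Msx3, Gsx1 and Zic1 were higher in mutant cells at day 9, so that the day 9 difference is described here and not tested. The cells were JB4/EI7HZ2, a female F1 line of JF1 and B6 parentage (WT), and a SmcHD1-mutant line (KO) that the authors derived from it with CRISPR–Cas9. SmcHD1 is a chromatin protein of the SMC family, known for its role in silencing of the inactive X chromosome. Each genotype is represented by 1 line, so an effect of the mutation and a difference between lines cannot be told apart. Both were sampled as mESCs in serum with 2i and LIF under G418 and Zeocin selection for both X chromosomes, as aggregates in neurectoderm differentiation at day 7 and at day 9, and as adherent neural stem cells (NSCs) grown with FGF2 and EGF under the same selection. The NSCs were derived from mESCs by a separate protocol and not from the aggregates, so stage and protocol cannot be told apart between these groups. Every one of the 8 groups had 3 replicates, which makes 24 poly(A) RNA-seq libraries. The study describes the replicates as independent biological experiments on these lines, so p-values measure the spread between such experiments with 1 line per genotype.

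In the embryo, the neural tube is patterned along its dorsoventral axis by opposing signals. BMP and WNT ligands come from the roof plate at the dorsal edge, and Sonic hedgehog comes from the notochord and floor plate at the ventral edge. Progenitors read these signals by switching on combinations of homeodomain, paired domain and zinc finger factors. Msx1, Msx2 and Msx3 are homeodomain repressors induced by BMP in the most dorsal progenitors. Lmx1a is a LIM homeodomain factor that specifies the roof plate and is also a marker of the midbrain floor plate. Pax7 is a paired homeodomain factor of the dorsal (alar) domain, Gsx1 and Gsx2 are homeodomain factors of intermediate dorsal progenitors, and Zic1 and Zic2 are zinc finger factors of the dorsal tube. Pax6, a paired homeodomain factor, is found in most neural progenitors outside the most ventral and most dorsal domains.

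Promoter sequences are shown for Msx3, Gsx1 and Zic1, whose day 9 levels differed most between genotypes, and for Lmx1a, which differed in the other direction at day 7. They are the 250 bases before the RefSeq start site in GRCm38.p6, 5′ to 3′ on the strand of the gene. Msx3 lies at chr7:140049089-140049338 on the minus strand, Gsx1 at chr5:147188446-147188695 on the plus strand, Zic1 at chr9:91365769-91366018 on the minus strand and Lmx1a at chr1:167689308-167689557 on the plus strand. Capitals mark matches to the motifs named after the sequences.
Msx3: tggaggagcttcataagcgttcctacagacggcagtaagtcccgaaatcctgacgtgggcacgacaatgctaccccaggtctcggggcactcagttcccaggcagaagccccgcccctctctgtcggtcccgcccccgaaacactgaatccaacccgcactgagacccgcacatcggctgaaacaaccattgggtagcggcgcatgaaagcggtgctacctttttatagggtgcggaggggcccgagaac
Gsx1: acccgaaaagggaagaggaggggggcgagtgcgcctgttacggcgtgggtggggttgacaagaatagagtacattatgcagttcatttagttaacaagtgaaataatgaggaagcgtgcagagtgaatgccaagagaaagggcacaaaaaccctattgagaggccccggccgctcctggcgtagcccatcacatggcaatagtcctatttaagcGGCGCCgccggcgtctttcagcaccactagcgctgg
Zic1: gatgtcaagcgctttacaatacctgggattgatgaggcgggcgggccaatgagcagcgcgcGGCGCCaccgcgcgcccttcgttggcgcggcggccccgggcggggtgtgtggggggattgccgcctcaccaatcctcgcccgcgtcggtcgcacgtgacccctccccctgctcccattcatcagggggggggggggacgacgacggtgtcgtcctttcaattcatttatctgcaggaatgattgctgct
Lmx1a: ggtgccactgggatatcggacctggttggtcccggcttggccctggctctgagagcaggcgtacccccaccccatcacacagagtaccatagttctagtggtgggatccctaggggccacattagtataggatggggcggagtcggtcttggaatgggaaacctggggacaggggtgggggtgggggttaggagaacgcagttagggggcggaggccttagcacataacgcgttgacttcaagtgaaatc

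The windows were searched on both strands for a BMP-SMAD element (GGCGCC), a GLI site (GACCACCCA), a TCF/LEF site (CTTTGAT), a homeodomain core (TAATTA) and an E-box (CAGCTG). Of 27025 RefSeq promoters of the same length, 9.54% held the BMP-SMAD letters, 0.211% the GLI, 3.23% the TCF/LEF, 4.90% the homeodomain and 12.8% the E-box letters. Among the 9 set members with an entry in the RefSeq promoter table, the BMP-SMAD letters were found in Gsx1, 36 bases before the start, and in Zic1, 189 bases before it. The homeodomain core was found in Msx2 only. The other 3 motifs had no match in these 9 windows. All 9 windows held more CpG dinucleotides than the median promoter, which has 6. The numbers were 27 in Zic1, 20 in Msx1, 18 in Msx3, 15 in Gsx1 and 9 in Lmx1a.

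Levels are given in FPKM, fragments per length of transcript and per library size, as the authors estimated them with X-linked and ribosomal reads removed. Read totals are not given in the sources used here, but the steps between low values gave relative read numbers from 0.811 to 1.15 of the median library. One read corresponded to between 0.0469 FPKM in Pax7 and 0.131 FPKM in Gsx2, so a value under about 0.3 FPKM rests on a few reads, and such a gene is described as listed at that level. Of the 10 genes, 8 passed the filter of a mean of at least 1 FPKM over the 24 libraries. Lmx1a at 1.03 and Msx2 at 1.11 FPKM were just inside it, and Msx1 at 0.744 and Gsx2 at 0.383 FPKM were outside and have values without a main test. Of the 8, 4 passed through a single group: Msx3, Gsx1 and Msx2 through KO day 9, which chose the set, and Lmx1a through WT day 7, with means over the other 7 groups of 0.829, 0.498, 0.769 and 0.588 FPKM. Shares of these 8 therefore support nothing about the set. Smchd1 ranged from 1.82 to 4.399 FPKM in the 12 KO libraries and from 12.96 to 26.41 FPKM in the 12 WT libraries, so no library went against its genotype label. Summed FPKM of 7 pluripotency markers was 2766 to 3396 in mESC libraries, 314 to 523 at day 7, 68.4 to 150 at day 9 and 5.72 to 12.7 in NSC libraries, while that of 6 neural progenitor markers was 399 to 473 in mESCs and 3515 to 6745 in NSCs. These are bulk samples, in which fewer cells of a type and less RNA per cell cannot be told apart.

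**Figure D1:**
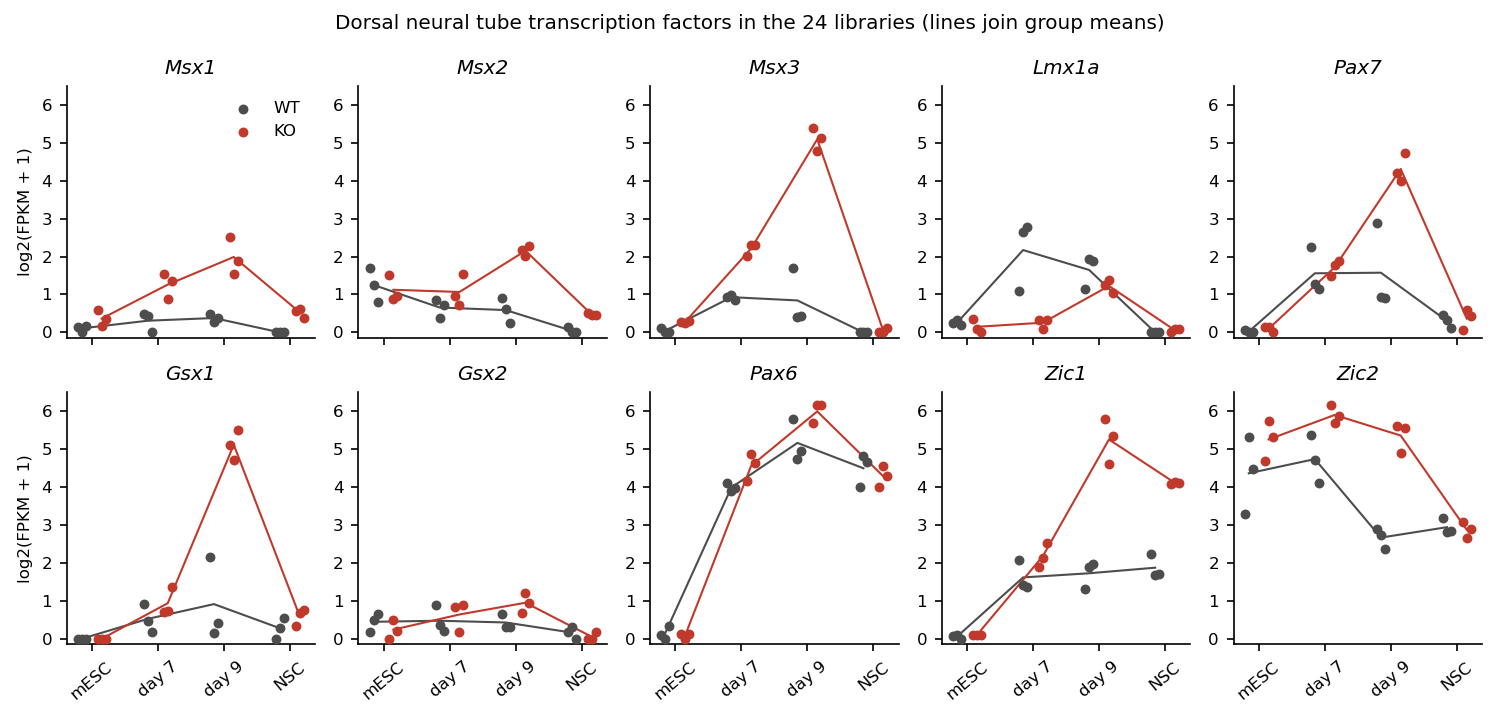
Levels of the 10 genes as log2(FPKM + 1) on the vertical axis, by stage, for the 3 WT (grey) and 3 KO (red) libraries of each stage, with lines joining group means. Msx3, Gsx1, Zic1 and Pax7 stand far above WT in all 3 KO libraries at day 9, Zic1 is above WT in NSCs too, and Lmx1a is below WT in KO cells at day 7. NSCs came from a separate protocol, so the line from day 9 to NSC is not a time course.

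At day 9 the Msx genes were all higher in KO than in WT cells, without overlap between libraries. Msx3 (chromosome 7, 147232056–147234987 in mm9) measured 40.7, 26.4 and 33.8 FPKM in the KO libraries and 2.22, 0.336 and 0.342 FPKM in the WT libraries. The mean in KO cells was 34.9 times that in WT cells. WT replicate 1 stood above the other WT libraries and held most of the WT mean, so it lowers this ratio. Msx2 (chromosome 13, 53562250–53568149) measured 3.48, 3.05 and 3.87 FPKM in KO and 0.874, 0.537 and 0.182 FPKM in WT, and Msx1 (chromosome 5, 38211730–38215824) 4.78, 1.93 and 2.70 FPKM in KO and 0.396, 0.203 and 0.310 FPKM in WT. The ratios of the means were 6.52 for Msx2 and 10.3 for Msx1. The Msx1 entry overlaps Msx1as, an antisense transcript that was also higher in KO cells at day 9, with 3.45 to 9.13 FPKM against 0.177 to 0.360 FPKM. The library kit keeps strand, but whether reads were counted by strand is not given in the sources used here, so reads could have been assigned to either of the pair. The longest stretch of identical bases between coding transcripts of the Msx genes was 22 bases, against reads of 80 bases.

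Gsx1 (chromosome 5, 148000272–148002522) had the largest day 7 to day 9 difference of the set in KO cells, 4.18 in mean log2(FPKM + 1). It was listed at 0 in all 6 mESC libraries and lay at 0.633, 0.662 and 1.59 FPKM in KO cells at day 7, and then at 33.6, 25.5 and 44.7 FPKM in KO cells at day 9. In WT cells at day 9 the values were 3.49, 0.112 and 0.341 FPKM, again with replicate 1 highest. The ratio of the means was 26.3, which replicate 1 lowers because most of the WT mean rests on it. Its paralog Gsx2 (chromosome 5, 75471626–75473918) stayed low throughout, with 0.613, 1.32 and 0.930 FPKM in KO and 0.586, 0.240 and 0.244 FPKM in WT cells at day 9, where the lowest KO library exceeded the highest WT library by less than the worth of 1 read. Both Gsx genes had all KO libraries above all WT libraries, but per length the KO mean of Gsx2 was 0.954 FPKM and that of Gsx1 was 34.6 FPKM. The longest stretch shared by their transcripts was 23 bases.

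Zic1 (chromosome 9, 91255183–91260637) measured 54.9, 23.4 and 40.1 FPKM in KO and 1.47, 2.73 and 2.95 FPKM in WT cells at day 9, a ratio of 16.6. Zic2 (chromosome 14, 122874606–122879550) measured 47.6, 29.1 and 46.5 FPKM in KO and 6.38, 5.71 and 4.20 FPKM in WT cells, a ratio of 7.56. The paths of the paralogs to this difference were unlike each other. From day 7 to day 9 the mean log2(FPKM + 1) of Zic1 changed by 3.07 in KO and by 0.11 in WT cells, whereas that of Zic2 changed by -0.54 in KO and by -2.07 in WT cells. The longest stretch shared by Zic1 and Zic2 transcripts was 35 bases.

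Pax7 (chromosome 4, 139293996–139388883) measured 17.6, 15.0 and 25.4 FPKM in KO and 6.39, 0.904 and 0.876 FPKM in WT cells at day 9, a ratio of 7.09. Most of that WT mean rests on replicate 1, which lowers the ratio. Pax6 measured 50.3, 70.5 and 70.3 FPKM in KO and 54.60, 25.99 and 29.86 FPKM in WT cells, so that its groups overlapped. Its entry (chromosome 2, 105376237–105537521) begins at the GENCODE start of Pax6os1, whereas the GENCODE start of Pax6 is 105509053. Lmx1a (chromosome 1, 169619689–169778864) measured 1.37, 1.62 and 1.05 FPKM in KO and 1.20, 2.80 and 2.68 FPKM in WT cells, and its groups overlapped too. In all, 8 of the 10 genes had every KO library above every WT library at day 9, where 15.4% of the 12105 tested genes did, and nothing is read from this count because the set was chosen on this contrast. WT replicate 1 held the highest WT value of Msx1, Msx2, Msx3, Gsx1, Gsx2, Zic2, Pax6 and Pax7 at day 9. Without that library 9 of the 10 genes were above WT, Pax6 included, against 20.7% of tested genes, an alternative chosen after seeing the data.

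The rule for the set names day 9 and not day 7, so the members were tested at day 7, although the set was chosen with earlier results of all stages known. A linear model on log2(FPKM + 1) over all 24 libraries (limma, two-sided, Benjamini-Hochberg adjusted over the 12105 tested genes, with a call at an adjusted p under 0.05) called 1.18% of all tested genes higher and 2.5% lower in KO than in WT cells at day 7. Of the 8 tested members 1 rose, Msx3, and 1 fell, Lmx1a.

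Msx3 measured 3.02, 3.99 and 3.98 FPKM in KO and 0.925, 0.972 and 0.821 FPKM in WT cells at day 7. Every KO library was more than 3 times the highest WT library, the log2 fold change was 1.28 (SE 0.23) and the limma adjusted p was 0.00129. Lmx1a measured 0.264, 0.0663 and 0.265 FPKM in KO cells, which corresponds to 1 to 5 reads, and 1.12, 5.30 and 5.86 FPKM in WT cells. The WT libraries were all higher, with replicate 1 the lowest of them, and the log2 fold change was -1.92 (SE 0.29, limma adjusted p 0.000265). The call of Lmx1a ended when only the day 7 libraries were fitted (adjusted p 0.0534), and that of Msx3 held in every alternative. The WT day 7 level itself carried Lmx1a over the filter, and with no filter on low values the adjusted p was 0.000358 for Lmx1a and 0.00155 for Msx3. An exact two-sided permutation test of 3 against 3 libraries gave p = 0.1 for both, the smallest it can give.

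Zic2 measured 70.5, 50.6 and 57.2 FPKM in KO and 40.8, 25.3 and 16.4 FPKM in WT cells at day 7, without overlap. The log2 fold change was 1.16 (SE 0.39) and the limma adjusted p 0.121, and without WT day 7 replicate 1, the highest WT library, the adjusted p was 0.0420. Pax6 measured 16.95, 28.48 and 23.99 FPKM in KO and 16.1, 13.9 and 14.8 FPKM in WT cells (log2 fold change 0.57, limma adjusted p 0.256). Msx1 measured 1.92, 0.842 and 1.56 FPKM in KO and 0.406, 0.352 and 0 FPKM in WT cells, while Msx1as measured 1.57 to 3.17 FPKM in KO and 0.323 to 0.714 FPKM in WT cells. Without the filter on low values Msx1 had a log2 fold change of 0.95 and a limma adjusted p of 0.00666. Altogether 4 of the 10 genes, Msx1, Msx3, Zic2 and Pax6, had all KO libraries above all WT libraries at day 7, against 11.6% of tested genes, and Lmx1a was the 1 with all below, against 12.3%.

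The other members did not pass the test at day 7. Zic1 measured 2.74, 3.37 and 4.74 FPKM in KO and 3.23, 1.67 and 1.56 FPKM in WT cells (log2 fold change 0.56, limma adjusted p 0.30), Msx2 had a log2 fold change of 0.41 (0.489), Gsx1 of 0.41 (0.702) and Pax7 of 0.16 (0.923). Their groups overlapped, and in Zic1, Gsx1 and Pax7 it was WT replicate 1 that reached into or above the KO range.

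**Figure D2:**
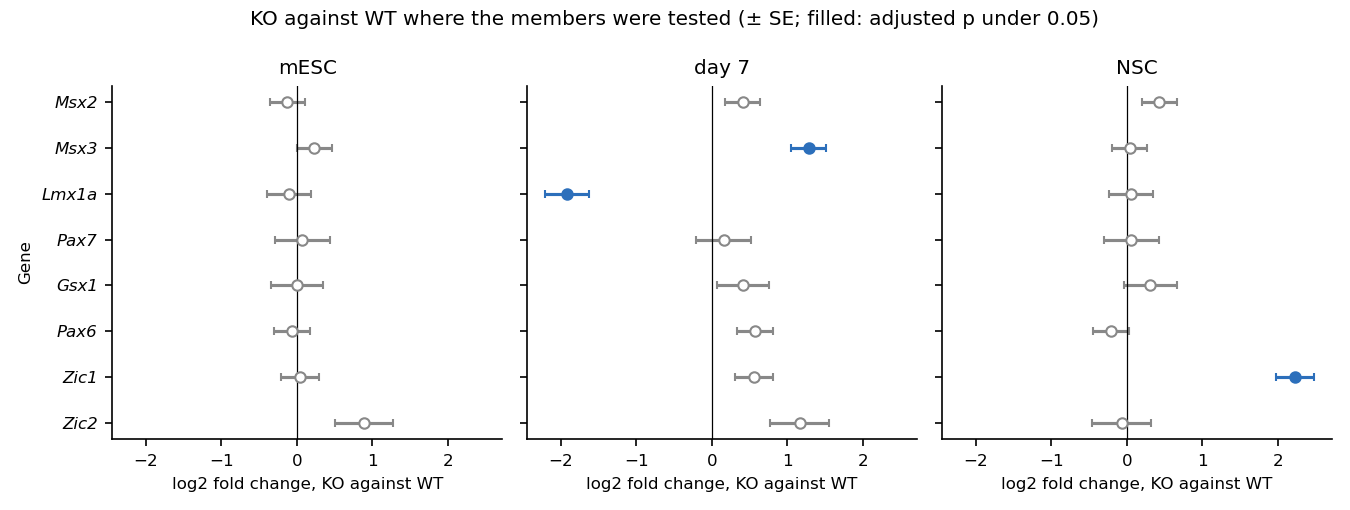
Log2 fold change of KO against WT on log2(FPKM + 1) (horizontal axis, bars ± SE) for the 8 tested members in mESCs, at day 7 and in NSCs, with filled points at a limma adjusted p under 0.05. Filled points are Msx3 at 1.28 and Lmx1a at -1.92 at day 7, and Zic1 at 2.23 in NSCs.

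In NSCs, a proliferating population from the separate protocol, limma placed 2.54% of tested genes higher in KO than in WT cells and 3.48% lower. Of these calls 42.3% were higher, against 54.4% when libraries were scaled to the same FPKM sum. Zic1 was the 1 member of 8 that passed the test. It measured 15.9, 16.5 and 16.3 FPKM in the KO libraries and 3.74, 2.21 and 2.24 FPKM in the WT libraries, so the KO libraries lay close together and far above WT. The log2 fold change was 2.23 (SE 0.25, limma adjusted p 7.16e-06, or 1.09e-05 when NSC libraries of the same number were blocked), and it stayed between 2.14 and 2.42 when each library was left out in turn. With that block in a fit of the 6 NSC libraries alone, an alternative chosen after seeing the data that leaves little information on the spread, the adjusted p was 0.0546 and 12 genes were called in all. Its paralog Zic2 measured 7.41, 5.35 and 6.41 FPKM in KO and 8.04, 6.07 and 6.13 FPKM in WT cells, with overlapping groups (log2 fold change -0.07, SE 0.39, limma adjusted p 0.980).

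The members other than Zic1, Zic2 and Pax6 were at or near 0 in NSCs of both genotypes. Msx3 was listed at 0 in 5 of the 6 libraries and at 0.0859 FPKM, 1 read, in the other. Lmx1a was listed at 0 in the 3 WT libraries and at up to 0.0597 FPKM in KO cells. Gsx1 reached 0.684 FPKM in KO and 0.450 FPKM in WT cells, and Pax7 0.505 and 0.373 FPKM, with overlap in both. Msx2 had a log2 fold change of 0.43 (limma adjusted p 0.358), with 0.365 to 0.427 FPKM in KO and 0 to 0.0969 FPKM in WT cells, and was called with a pseudocount of 0.1 (0.0160). Msx1 was listed at 0 in the WT libraries and at 0.311 to 0.541 FPKM, 3 to 5 reads, in the KO libraries. Msx1, Msx2 and Zic1 were the 3 of 10 genes without overlap in NSCs, all with KO above WT, against 8.16% of tested genes. Pax6 measured 15.0, 22.6 and 18.7 FPKM in KO and 15.1, 27.1 and 24.5 FPKM in WT cells, and these groups overlapped.

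In mESCs, before differentiation, no member was called between KO and WT cells in a limma comparison that called 0.116% of all tested genes higher and 0.413% lower. One member, Zic2, had an unadjusted p under 0.05 (0.0327). Zic2 measured 24.9, 52.6 and 39.4 FPKM in KO and 8.82, 38.7 and 21.5 FPKM in WT cells, and it was the 1 gene of the set at a substantial level at this stage (log2 fold change 0.89, SE 0.39, limma adjusted p 0.587). The libraries were ordered alike in both genotypes, with replicate 1 lowest and replicate 2 highest, and blocking by that number gave an adjusted p of 0.142. Msx2 followed at 1.22 ± 0.566 FPKM in KO and 1.46 ± 0.752 FPKM in WT cells (mean ± SD, n = 3). The other 8 genes had group means of at most 0.377 FPKM, and Gsx1 was listed at 0 in all libraries. The block changed the count of all genes called in mESCs from 64 to 113, and to 6 in a fit of the mESC libraries alone, an alternative chosen after seeing the data.

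The members were also compared between stages within each genotype. From mESCs to day 7, WT cells had 29.1% of all tested genes called higher and 30.2% lower, and KO cells 29.5% and 31.8%. Pax6 had the largest rise of the set in both, with log2 fold changes of 3.84 in WT (SE 0.24, limma adjusted p 1.34e-11) and 4.48 in KO cells (7.27e-13). Zic1 rose by 1.56 in WT and 2.09 in KO cells, Pax7 by 1.54 and 1.62, and Msx3 by 0.89 and 1.94, all called (largest limma adjusted p 0.00224). Lmx1a rose by 1.92 in WT cells (8.37e-06, and 1.5e-05 without the filter that it passed through WT day 7 alone) and had a log2 fold change of 0.11 in KO cells (0.766). Gsx1 rose by 0.94 in KO cells (0.0241, lost in 3 of 6 fits without 1 library) and had 0.53 in WT cells (0.202), where it was called with a pseudocount of 0.1 (0.0137) and in a fit of the WT mESC and day 7 libraries alone (0.0377). Msx2 fell by 0.60 on the log2 scale in WT cells (0.0335). In all, 5 members were called higher and 1 lower in WT cells, and 5 higher in KO cells. The WT and KO comparisons have no library in common.

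The fall of Msx2 in WT cells was lost in 4 of 6 fits without 1 library, in a fit of the WT mESC and day 7 libraries alone, and when libraries were scaled to the same FPKM sum, which shifts the median log2 fold change of all genes by 0.19 in WT and 0.18 in KO cells between these stages. Under that scaling 66.3% of the calls in WT cells and 63.3% in KO cells were higher, against 49.1% and 48.1% as deposited. The other calls of members kept their direction and held under it.

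From mESCs to NSCs, 36.9% of tested genes were called higher and 38.3% lower in WT cells, and 37.7% and 38.2% in KO cells. Pax6 rose by 4.35 in WT and 4.20 in KO cells and Zic1 by 1.82 and 4.01, while Zic2 fell by 1.42 and 2.38 and Msx2 fell by 1.21 and 0.65 on the log2 scale, and these 4 were the members called in both genotypes (largest limma adjusted p 0.0161, for Msx2 in KO cells). Scaling to the same sum shifted the median of all genes by 0.37 in WT and 0.43 in KO cells and the share of calls that were higher from 49.1% to 66.2% and from 49.7% to 68.3%. That scaling and leaving out KO mESC replicate 1 each ended the call of Msx2 in KO cells. The other 7 calls held under the scaling, and those of Pax6, Zic1 and Zic2 in KO cells also held without that library.

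Whether the KO effect differed between stages was tested with the interaction terms of the same model. Between NSCs and day 7 the protocol differs as well as the stage, and the terms cannot separate them. The KO effect at day 7 minus that in mESCs was called for 1.68% of tested genes in either direction, and the KO effect in NSCs minus that at day 7 for 5.05% (55.3% of these calls positive, 71.6% under the same FPKM sum). Lmx1a was called in both, with -1.81 (SE 0.41, limma adjusted p 0.0232) and 1.97 (SE 0.41, 0.00645). Both terms contain the WT day 7 level that carried Lmx1a over the filter, and with no filter the adjusted p values were 0.0248 and 0.00782. In NSCs both Lmx1a and Msx3 had at most 1 read in any library, so their terms between NSCs and day 7 restate the day 7 differences. Zic1 had a larger KO effect in NSCs than at day 7 by 1.67 (SE 0.36, 0.00726), and Msx3 a smaller one, by -1.24 (SE 0.32, 0.0277). Of 12 fits that each lacked 1 library, 6 lost Lmx1a between day 7 and mESCs and 7 lost Msx3, while Zic1 and Lmx1a between NSCs and day 7 were called in all 12. A pseudocount of 0.1 ended the call of Msx3 (0.21) and that of Lmx1a between day 7 and mESCs (0.0787), and a fit of the day 7 and mESC libraries alone ended that of Lmx1a (0.0961) and called Msx3 in its place (1.05, 0.0118).

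The order of the group means shows how differently the genes were placed among the groups. Zic1 was highest in KO day 9 cells (39.5 ± 15.8 FPKM, SD, n = 3), then in KO NSCs (16.3 ± 0.295), and the libraries of these groups did not overlap. KO day 7 cells (3.62 ± 1.03), WT NSCs (2.73 ± 0.874), WT day 9 cells (2.38 ± 0.798) and WT day 7 cells (2.16 ± 0.932) followed, each within the spread of its neighbour, and mESCs were last. Msx3 was highest in KO day 9 cells (33.7 ± 7.14 FPKM), then in KO day 7 cells (3.66 ± 0.556), followed without overlap between KO day 7 and WT by WT day 9 (0.966 ± 1.08) and WT day 7 cells (0.906 ± 0.0775), which overlapped. Gsx1 stood at 34.6 ± 9.63 FPKM in KO day 9 cells, and WT day 9 (1.31 ± 1.89), KO day 7 (0.960 ± 0.542), KO NSC (0.516 ± 0.220) and WT day 7 groups (0.472 ± 0.386) overlapped one after another. Within a group, Pax6 and Zic2 held the top 2 means of the set at day 7 and at day 9 in both genotypes.

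The genes whose levels were most like those of Msx3, Gsx1 and Zic1 over the 24 libraries were found by Pearson correlation of log2(FPKM + 1) among the tested genes outside the set. For Msx3 they were the WNT ligand genes Wnt8b (r = 0.956) and Wnt3 (0.945), and Filip1 (0.924). For Gsx1 they were Lbx1, a homeodomain factor of dorsal interneurons (0.943), Wnt3 (0.931) and Filip1 (0.930). Wnt8b measured 6.77 FPKM in KO and 0.0550 FPKM in WT day 9 cells, and Wnt3 7.58 and 0.816 FPKM. The genes nearest to Zic1 were Pisd-ps1 (0.904), Cp (0.872) and Boc, a hedgehog co-receptor gene (0.862), which were all higher in KO than in WT day 9 cells. Within the set Msx3 correlated with Gsx1 at 0.942 and with Pax7 at 0.946, and Zic1 with Zic2 at -0.03. The points share stages and genotypes, so these values describe the groups and carry no p.

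Other genes of the dorsoventral axis were counted from lists of roof plate, progenitor, interneuron, ventral and BMP pathway genes. At day 9, where limma placed 2.58% of tested genes above WT in KO cells and 4.11% below (38.6% of calls higher, 22.7% under the same FPKM sum), 3 of 4 tested other roof plate genes rose. They were the secreted WNT agonist Rspo1 (7.363 ± 1.498 against 0.142 ± 0.123 FPKM, log2 fold change 2.86, limma adjusted p 2.37e-09), the ligand Wnt1 (16.2 ± 7.47 against 1.45 ± 0.353, 2.71, 1.45e-05) and Rspo3 (6.84 ± 2.75 against 0.825 ± 0.251, 2.06, 9.44e-07). Of 7 tested other dorsal progenitor factors 4 rose and 1 fell, led by the paired domain factor Pax3 (35.1 ± 8.53 against 3.02 ± 3.37, 3.45, 1.43e-06), Zic5 (2.42, 2.55e-05) and Gli3 (1.66, 8.20e-05). The factor that fell had a smaller absolute change than these. Of 7 tested dorsal interneuron factors 2 rose, Lbx1 (14.01 ± 5.921 against 0.780 ± 1.13, 3.19, 2.72e-06) and Tlx3 (5.45 ± 1.24 against 0.437 ± 0.192, 2.16, 2.80e-08). Lbx1 passed the filter through KO day 9, with means of 0.083 FPKM in KO and 0.108 FPKM in WT day 7 cells and 0.722 FPKM in KO NSCs. A listed gene can thus be tested because of the group where it is high, so these shares of tested genes are not independent of the differences. The median log2 fold changes of these lists were 2.38, 1.31 and -0.12, against 0.00 over all tested genes. The count of dorsal progenitor factors called moved from 5 to 3 without KO day 9 replicate 1, without KO day 9 replicate 3 or without WT day 9 replicate 2, and to 8 with no filter on low values. That setting also called 5 roof plate and 4 interneuron genes.

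At day 7 these lists were divided. Wnt1 (11.6 ± 7.36 against 0.376 ± 0.240 FPKM, log2 fold change 3.00, limma adjusted p 8.59e-06) and Rspo1 (0.99, 0.00339) rose and Rspo3 fell (0.568 ± 0.164 against 7.69 ± 1.54, -2.46, 1.33e-07), so that Rspo3 was lower in KO cells at day 7 and higher at day 9. None of 7 tested dorsal progenitor factors was called by limma at day 7, where 3 had an unadjusted p under 0.05 and 2 were called without WT day 7 replicate 1. The interneuron factors Pax2 (1.52, 0.000489) and Lhx5 (1.35, 0.00536) rose and Lhx1 fell (-2.43, 1.15e-06). A pseudocount of 0.1 ended the calls of Rspo1 and Lhx5, and leaving out WT day 7 replicate 3 that of Lhx5. In NSCs no gene of the 3 dorsal lists was called by limma or had an unadjusted p under 0.05 (0 genes), and 1 progenitor factor was called with no filter on low values.

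Genes of the ventral tube went the other way. At day 7, 9 of 13 tested ventral genes fell in KO cells and none rose, with a median log2 fold change of -2.03. Mesoderm and endoderm markers such as T and Cer1 fell in the same comparison, and which cells held the ventral transcripts was not tested. Nkx2-9 (0.263 ± 0.456 against 42.9 ± 29.3 FPKM, log2 fold change -4.79, limma adjusted p 3.92e-05), the floor plate factor Foxa2 (0.726 ± 0.588 against 29.6 ± 12.6, -4.09, 1.39e-06) and the ligand Shh (0.135 ± 0.0580 against 16.5 ± 10.7, -3.66, 4.74e-05) changed most, and a fit of the day 7 libraries alone ended the call of Nkx2-9 (0.0592). At day 9, 11 of 13 fell, with a median of -2.56, led by Isl1 (1.27 ± 1.17 against 29.3 ± 6.68 FPKM, -3.84, 9.05e-10), Nkx2-2 (-3.47, 7.79e-05) and Nkx6-1 (-3.25, 0.000676). In NSCs 1 of 13 rose, Foxa1 (1.43 ± 0.454 FPKM in KO, listed at 0 in WT, limma adjusted p 0.0138), and the call was lost without KO replicate 2 or without KO replicate 3, while a pseudocount of 0.1 called 3 ventral genes and the same FPKM sum or leaving out KO replicate 1 called 2, and the blocked fit of the NSC libraries alone gave Foxa1 an adjusted p of 0.0829. A fit of the day 9 libraries alone called 5 of the 13, and ended the calls of Nkx2-2 (highest adjusted p of any alternative 0.0958) and Nkx6-1 (0.0626).

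The dorsal factors and the ventral genes can be set side by side library by library. Summed FPKM of the 17 ventral genes was 94.6, 286 and 294 in WT replicates 1, 2 and 3 at day 7, where Lmx1a measured 1.12, 5.30 and 5.86 FPKM in the same libraries, and it was 28.3, 25.2 and 24.5 in KO cells. WT day 7 replicate 1 was thus the WT library with the lowest Lmx1a and ventral sum and the highest Gsx1, Zic1, Zic2, Pax6 and Pax7. At day 9 the ventral sum was 428, 551 and 560 in WT and 42.6, 174 and 64.9 in KO cells. KO replicate 2, with the highest ventral sum of the KO libraries, had the lowest Msx1, Msx2, Msx3, Gsx1, Zic1, Zic2 and Pax7 of them and the highest Gsx2, Pax6 and Lmx1a. WT replicate 1, with the lowest ventral sum of the WT libraries, had the highest WT value of 8 of the 10 genes and the lowest of Zic1 and Lmx1a. In NSCs the ventral sum was 1499, 1502 and 1484 in WT and 1752, 1903 and 1646 in KO cells, so that it was higher in KO cells at the stage where Zic1 was too. Most of it was Olig1, with means of 1121 FPKM in WT and 1369 FPKM in KO NSCs (log2 fold change 0.29, limma adjusted p 0.634). This is a description of 6 libraries per stage, and no relation was tested.

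**Figure D3:**
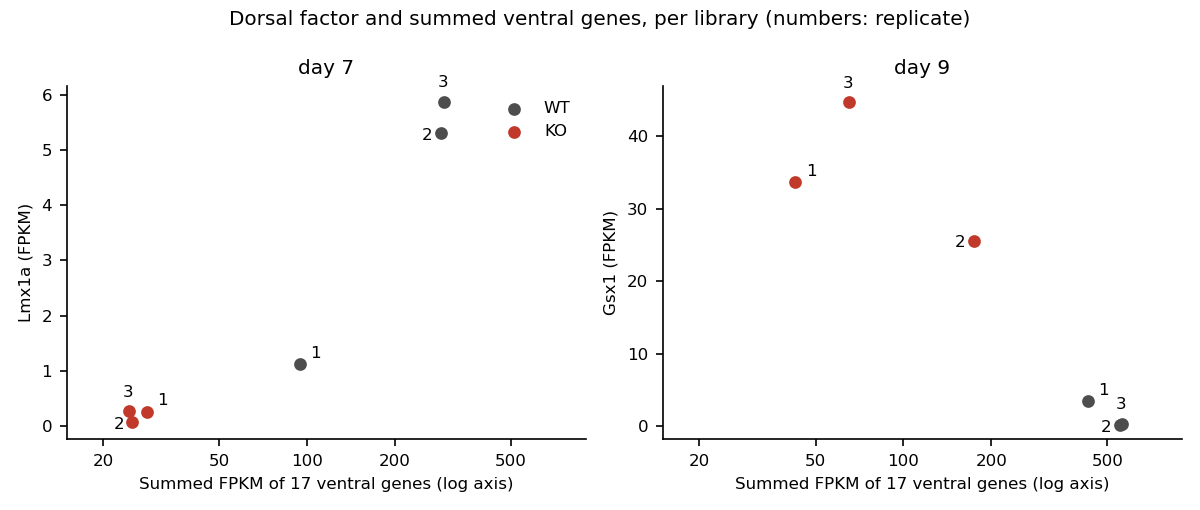
Lmx1a at day 7 (left) and Gsx1 at day 9 (right) in FPKM against the summed FPKM of 17 ventral genes on a log axis, for each WT (grey) and KO (red) library with its replicate number. At day 7 Lmx1a is above 5 FPKM where the ventral sum is 286 and 294, and at day 9 Gsx1 is above 25 FPKM where it is at most 174.

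BMP pathway genes, which include ligands, receptors, SMADs, targets and inhibitors, had a summed level of 379 to 417 FPKM in KO and 490 to 497 FPKM in WT libraries at day 7, and of 504 to 643 and 425 to 501 FPKM at day 9. The KO sums lay below WT at day 7, while at day 9 the lowest KO sum was close to the highest WT sum and the groups overlapped once libraries were scaled to the same FPKM sum. At day 7, 2 of 20 tested genes fell, the secreted BMP antagonists Chrd (0.689 ± 0.108 against 10.2 ± 2.63 FPKM, log2 fold change -2.71, limma adjusted p 2.22e-08) and Nog (0.812 ± 0.554 against 8.71 ± 4.63, -2.33, 0.000447), and no filter on low values gave 4 calls. At day 9, 3 rose, the antagonist Fst (1.12, 0.00558), the ligand Bmp6 (1.02, 0.000152) and the receptor Bmpr1b (0.86, 0.00144), while 7 were called when the day 9 libraries were fitted alone and 5 with no filter on low values, and a pseudocount of 0.1 ended the call of Fst. In NSCs Bmpr1b fell (1.24 ± 0.314 against 4.90 ± 0.669, -1.40, 1.12e-05, and 0.0701 in that blocked fit) and Id4, a target, rose (1.27, 0.0218), a call that was lost when the NSC libraries were fitted alone and without KO replicate 1, KO replicate 3, WT replicate 1 or WT replicate 3. The medians of the list were -0.19, -0.14 and 0.08 in these 3 comparisons. In mESCs no gene of the dorsal, ventral and BMP lists was called by limma, and 3 had an unadjusted p under 0.05. Without WT mESC replicate 2 the list of progenitor factors and that of BMP genes had 1 call each, and a pseudocount of 0.1 called 1 BMP gene.

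Markers of other cell types and regions also differed between genotypes. At day 7, 5 of 6 tested mesoderm markers fell in KO cells, led by T (1.59 ± 0.755 against 103 ± 43.9 FPKM, log2 fold change -5.26, limma adjusted p 2.92e-07), with 2 called when the day 7 libraries were fitted alone, and both tested endoderm markers fell, Cer1 (-4.70, 1.27e-08) and Sox17 (-2.69, 1.53e-06). With no filter on low values 4 endoderm markers were called. The summed FPKM of 8 mesoderm markers was 9.36 to 10.5 in KO and 70.1 to 211 in WT libraries, and Msgn1 was at 0 in all KO libraries. That of 6 endoderm markers was 1.11 to 3.63 in KO and 46.2 to 115 in WT libraries. At day 9, 4 of 6 mesoderm markers fell, with sums of 13.1 to 23.0 and 24.3 to 67.1 FPKM, and this count was 2 without KO replicate 1, KO replicate 3, WT replicate 2 or WT replicate 3 and in a fit of the day 9 libraries alone. Of the tested endoderm markers none was called by limma at day 9, 1 had an unadjusted p under 0.05, and 3 of 5 tested neuron markers fell (5 with the day 9 libraries fitted alone), with sums of 330 to 460 and 689 to 778 FPKM. Neural crest, which arises from the dorsal tube, had 1 of 7 tested markers higher at day 9, Tfap2a (1.85, 3.00e-06). Lower were 2, Ngfr (log2 fold change -1.51, limma adjusted p 0.0014) and Ets1 (-0.78, 0.0372). The Ets1 call was lost when the day 9 libraries were fitted alone and in several fits without 1 library. The list had a median of -0.655 and sums of 30.7 to 43.1 FPKM in KO and 40.1 to 70.4 FPKM in WT libraries. The part of these markers in the values of the dorsal factors was not tested.

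Regional markers along the head-to-tail axis shifted as well. All 4 tested forebrain markers rose in KO cells at day 7 and at day 9, among them Emx2 (2.98 ± 1.40 against 0.0770 ± 0.0730 FPKM at day 7, log2 fold change 1.82, limma adjusted p 4.31e-05, and 2.01, 7.29e-06, at day 9), and at day 9 the count was 2 without KO replicate 2, WT replicate 2 or WT replicate 3. Midbrain and isthmus markers had 2 of 5 higher at day 7, led by En1 (3.26, 1.36e-05), and 3 of 5 at day 9. Hindbrain and cord markers had 3 of 6 lower at day 7 and 1 of 6 at day 9, with Hoxb1 lower in both (-1.55, 0.00359 and -1.47, 0.00379). The day 7 count was 1 without KO replicate 1, KO replicate 3, WT replicate 2 or WT replicate 3 and 0 when the day 7 libraries were fitted alone, and the day 9 count was 3 with no filter and 2 with the day 9 libraries alone. In NSCs, where Zic1 was higher in KO cells, the hindbrain genes Hoxa2 (-2.12, 1.01e-05) and Hoxb2 (-1.94, 7.02e-05) and the isthmus gene Gbx2 (-1.10, 0.0256) fell, and the forebrain gene Emx2 rose (1.42, 0.000663). Of 7 tested genes of the neural crest list in NSCs 1 rose, Tfap2a (5.60 ± 1.53 against 0.455 ± 0.105 FPKM, 2.16, 8.98e-07), and 2 fell, Sox10 (-1.70, 0.00915) and Sox9 (-0.75, 0.042). The list sums were 71.1 to 78.3 FPKM in KO and 87.3 to 104 FPKM in WT libraries, and whether they come from crest cells was not tested. Of 6 neural progenitor markers 2 fell, Vim (-0.55, 0.0415) and Sox2 (-0.49, 0.0308). Fitting the NSC libraries alone left Hoxa2 and Tfap2a called of these 9 genes, and with the block as well it left none. The crest count was also 1 without WT NSC replicate 2 or replicate 3, Gbx2 was lost without KO replicate 2, KO replicate 3 or WT replicate 1, and both progenitor markers were lost without KO replicate 1, KO replicate 3 or WT replicate 3 or with the same FPKM sum. Of 7 tested surface ectoderm markers 3 fell at day 7 and at day 9, among them Krt8 (-1.89, 3.60e-05 and -1.27, 0.00141), and in mESCs, where no dorsal factor was called, 1 fell, Krt18 (2.44 ± 0.769 against 8.25 ± 2.01 FPKM, -1.43, 0.00564, lost when the mESC libraries were fitted alone).

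**Figure D4:**
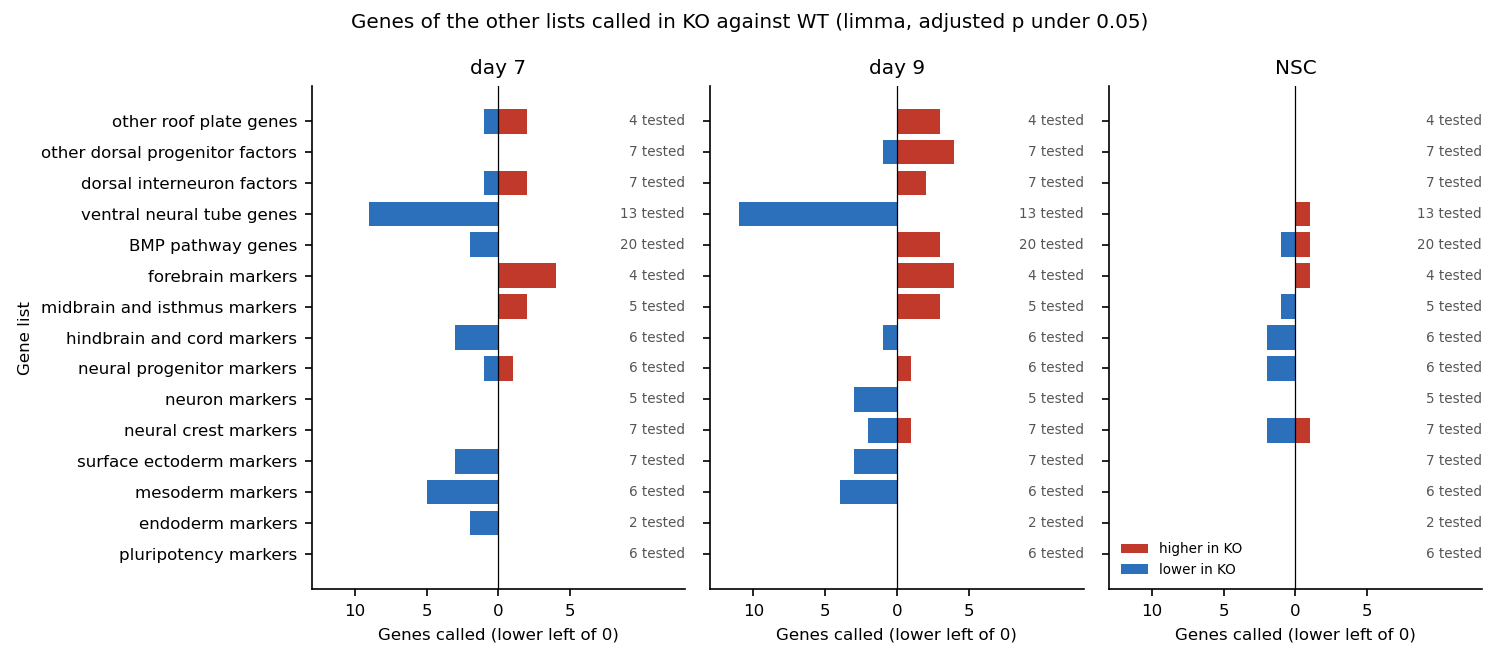
Number of genes of each list called higher (red, right of 0) or lower (blue, left of 0) in KO than in WT cells at day 7, at day 9 and in NSCs, with the number tested at the right. Ventral genes are lower in 9 of 13 at day 7 and 11 of 13 at day 9, and 4 of 4 forebrain markers are higher in both.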

How the data were processed

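Poly(A) RNA of 24 libraries was sequenced by the authors as single-end reads of 80 bases. Per the labels and methods, reads were trimmed (Trim Galore 0.6.6), aligned to mm9 (TopHat2 2.1.1), freed of ribosomal and X-linked reads, and summarised by Cuffdiff as the deposited FPKM of each library. Its library normalization and strand setting are not given in the sources used here. Another 12 FPKM columns were not used. Entries on X or Y (1091), 1 with a failed estimate and those with a mean under 1 FPKM were left out, which leaves 12105 genes. Low values gave relative depth: 97.0% of 30139 were whole reads within 0.1 read.

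Groups came from the labels. limma 3.58.1 (R 4.3.3) was fitted to log2(FPKM + 1) with 8 group means and eBayes trend and robust settings, and was tested on simulated data. Fold changes on this scale understate those of low genes. Alternatives were a pseudocount of 0.1, no filter (18156 genes), the same FPKM sum, only the groups compared, the replicate number as a block, leaving out each replicate, and, added after seeing the data, the block with only the groups compared. Replicate numbers in the labels were taken to pair WT and KO libraries in mESCs and NSCs, where deviations from group means correlated at 0.289, 0.435 and 0.141 and at 0.335, 0.184 and 0.240; at day 7, day 9 and between stages not every value was above 0.1. Named were the 10 set members, Smchd1, up to 3 called genes with the largest change per list, and the 3 genes most like Msx3, Gsx1 and Zic1. The members and lists were chosen with earlier results of these data known.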

Additional observations from a re-analysis of the deposited data

Results flagged for a closer look

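An interaction term of limma between stages (two-sided, Benjamini-Hochberg adjusted) was called for 3 dorsal factors, of which Zic1 alone was well above 0 in both stages compared. Lmx1a had a KO effect at day 7 below that in mESCs by -1.81 on the log2 scale (adjusted p 0.0232), and an effect in NSCs above that at day 7 by 1.97 (0.00645). Lmx1a passed the filter on low values only through WT day 7, and without the filter these adjusted p values were 0.0248 and 0.00782. In NSCs Lmx1a was listed at 0 in the 3 WT libraries and at up to 0.0597 FPKM in KO libraries. For Zic1 the effect in NSCs exceeded that at day 7 by 1.67 (0.00726), with the 3 KO libraries above the 3 WT libraries in NSCs. For Msx3 the effect in NSCs was below that at day 7 by -1.24 (0.0277), with NSC values listed at 0 in 5 of 6 libraries. With at most 1 read in any NSC library, the terms of Lmx1a and Msx3 between NSCs and day 7 restate their day 7 differences. Groups of 3 libraries were not searched for outlying samples.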

How the results depend on the processing

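Of 406 alternative values of 34 results on single dorsal factors, 367 kept their direction and side of the threshold, 29 lost the call, 10 gained it and 0 reversed. Only results called in at least 1 setting were counted here. Among those left out some did reverse, such as the log2 fold change of Pax7 at day 7 (-0.0494 to 0.503 without 1 library). The number of dorsal factors called at day 7 was 1 in place of 2 when only those groups were fitted (2 to 3 without 1 library). In NSCs it was 2 in place of 1 with a pseudocount of 0.1 and 0 when the replicate block was used with the NSC libraries alone. The KO effect at day 7 minus that in mESCs was called for 0 in place of 1 with a pseudocount of 0.1, and for 0 to 1 without 1 library, and with those groups alone it was called for Msx3 in place of Lmx1a. The cause was not tested.

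Among all genes, the 64 calls in mESCs became 164 with no filter, 42 with the same FPKM sum, 1 with those groups alone and 20 to 112 without 1 library (20 without KO replicate 3, 112 without WT replicate 2). The replicate block gave 113 in mESCs, and 6 with the mESC libraries alone. In NSCs 729 calls became 58 with those groups alone, 12 with the block added to that fit, and 406 to 1352 without 1 library (406 without KO replicate 3, 1352 without WT replicate 1). Within the fit of all libraries the block changed no call of a dorsal factor. At day 7, 446 calls became 273 to 521 without 1 library (273 without WT replicate 2). At day 9, 809 became 1221 with no filter, 1377 with those groups alone and 449 to 752 without 1 library (449 without WT replicate 2). The interaction of day 7 and mESCs ran from 119 to 253 around 203, and that of NSCs and day 7, at 611, was 308 with those groups alone and 367 to 1091 without 1 library. Values under about 0.3 FPKM are limited by counts of a few reads. Scaling to the same sum moved 5 of 80 group means of the dorsal factors by more than 1 SD, among them Zic1 in KO NSCs.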
